A study of Mus musculus with 39 samples.

Results

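The cyclic AMP feedback genes are 10 mouse genes whose products break down cyclic AMP, hold its kinase in check or act on the transcription factors at the end of the pathway. They were chosen by symbol, as genes of phosphodiesterases, of inhibitors of protein kinase A (PKA) and of factors around CREB. Earlier results of these data were known when they were chosen. They are 10 of the 39179 genes in the count table. All 10 passed the filter on low counts and are among the 15070 genes tested. The members are the phosphodiesterase genes Pde4a, Pde4b, Pde4d and Pde3b, the PKA inhibitor genes Pkia, Pkib and Pkig, the transcription factor genes Crem and Creb5, and the kinase gene Sik1.

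Bulk RNA was read from 39 tumours of a Braf-mutated melanoma in C57BL/6 mice, with tumour cells grown in culture before injection. Treatment began on day 7 after injection and lasted 2 or 5 days. Vehicle mice received a mix of DMSO-PEG400 and water at 200 µl per dose, and EPAT mice received a mix that blocks EP2 and EP4, receptors of prostaglandin E2, at 30 mpk, from 3 mg/mL in 200 µl, both bidaily. Anti-PD-1 mice received 200 µg of the antibody per dose every few days, and combination mice received both agents. Each of the 8 groups held 5 libraries, apart from anti-PD-1 on day 2 with 4. The labels state neither the tumour line by name, nor the sex or age of the mice, nor whether each library stands for its own mouse, so p-values measure only the spread between these samples, which may be technical. The extraction text speaks of tumours taken on day 4, which matches neither time point; the day in each library's own labels was used. In 3 libraries (EPAT day 2 replicate 5, EPAT day 5 replicate 5 and anti-PD-1 day 5 replicate 3) the first number of the title is the one that the other libraries of the same treatment carry on the other day. Their labelled day was kept, and results whose call changes without the 3 are given with that value.

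Prostaglandin E2 bound to EP2 or EP4 activates adenylyl cyclase through the G protein Gs, and the cyclic AMP that results activates PKA, which phosphorylates CREB and its relatives. CREB-driven transcription includes genes that end the signal: phosphodiesterases that hydrolyse cyclic AMP, short repressor forms of CREM, and salt-inducible kinases that keep the CREB coactivators in the cytoplasm. In T cells and myeloid cells, cyclic AMP is known for damping activation and inflammatory cytokine production.

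The DNA element that CREB binds, the cyclic AMP response element, has the letters TGACGTCA, which read the same on both strands, and a shorter motif within it has the letters TGACG, searched on both strands and so also found in every full element. RefSeq (GRCm38.p6) windows of 300 bases around the transcription start, 250 before and 50 after, were at hand for 6 of the members, 15 windows in all: Creb5, Pde4a, Pde4b, Pde4d, Pkib and Pkig. Pde3b, Pkia, Crem and Sik1 had none. The full element occurred in 1 of the 15 windows, against 1.79% of all 32851 windows, and the shorter motif in 4 of the 15 (Creb5, 1 of Pde4a, 1 of Pde4b and 1 of Pkig), against 20.8%. The 3 sequences shown are the Creb5 window with the full element, since Creb5 is the member whose level passed a test, the Pde4a window with the shorter motif (read as CGTCA on this strand), and the first Pkib window, which has neither, since the Pkib group means lay farthest apart of the 10. Capitals mark the element or motif, and each run ends before the first annotated exon or the RefSeq start. Creb5 lies at chr6:53287053-53287269 (plus strand, upstream of the gene), with the element beginning 45 bases before the RefSeq start. Pde4a lies at chr9:21183851-21184100 (plus strand, inside the Pde4a gene and outside annotated exons, before an internal start), and Pkib at chr10:57631731-57631980 (plus strand, upstream of the gene).
Creb5: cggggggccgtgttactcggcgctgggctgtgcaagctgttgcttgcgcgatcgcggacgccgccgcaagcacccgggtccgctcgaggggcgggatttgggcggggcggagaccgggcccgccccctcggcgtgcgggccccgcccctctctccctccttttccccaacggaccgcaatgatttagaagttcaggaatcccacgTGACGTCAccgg
Pde4a: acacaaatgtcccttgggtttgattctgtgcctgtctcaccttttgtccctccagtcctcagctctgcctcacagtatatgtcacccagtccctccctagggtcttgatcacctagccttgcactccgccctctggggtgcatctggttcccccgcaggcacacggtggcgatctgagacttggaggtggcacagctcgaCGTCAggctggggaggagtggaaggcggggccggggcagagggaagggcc
Pkib: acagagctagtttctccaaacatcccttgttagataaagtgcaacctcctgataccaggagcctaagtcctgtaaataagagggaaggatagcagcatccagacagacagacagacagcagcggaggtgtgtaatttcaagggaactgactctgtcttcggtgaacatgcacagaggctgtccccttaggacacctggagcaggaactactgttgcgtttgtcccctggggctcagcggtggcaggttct
A match describes the letters of a window and is not evidence of binding.

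Total counts per library ranged from 8385741 to 15558113. The predicted gene Gm42418 took 1.90 to 12.9% of them, unevenly between groups. On day 2 its share was 2.60, 2.73, 3.34, 3.47 and 6.99% in vehicle libraries. It was 3.09, 7.88, 7.99 and 8.65% in anti-PD-1 and 2.96, 3.26, 3.56, 4.07 and 8.04% in combination libraries. In EPAT libraries of day 2 it ranged from 2.63 to 10.7%. On day 5 it ranged from 1.90 to 10.7% in vehicle and from 3.63 to 8.59% in anti-PD-1 libraries. In EPAT libraries of day 5 it ranged from 2.39 to 12.9% and in combination libraries from 3.21 to 8.22%. High shares lay mostly in libraries with a middle S number, which ends each title, and their part in the differences was not tested. The tumours differed in tissue content: a skeletal muscle score (the mean log2 CPM of 10 muscle genes) ranged from -1.31 to 10.2. Reads of lung genes were present in 23 libraries and nearly absent in 16. Their presence followed the same S number: libraries with low numbers held them and those with high numbers lacked them, with a few out of order. What lies behind this order was not tested. Libraries with lung transcripts numbered 3, 4, 4 and 3 on day 2 and 3, 2, 2 and 2 on day 5, in the order vehicle, anti-PD-1, EPAT and combination. Of 7 melanocyte genes only Mitf and Sox10 passed the filter; Tyrp1 had no count in any library and Pmel, Tyr, Dct and Mlana had at most 9 counts in a library, so the pigment cell markers of the labelled tissue were at or near 0. In bulk RNA, fewer cells of a type and less RNA per cell cannot be told apart. Comparisons that use the same vehicle or single-agent tumours are not independent of each other. Levels are in CPM, the counts scaled to library size with TMM factors; tags come from near the 3′ end of transcripts, so a level carries no gene length term.

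In GENCODE M21 (GRCm38), Creb5 (ENSMUSG00000053007) spans chr6:53287270-53700376, Pkib (ENSMUSG00000019876) chr10:57631981-57741112, Pde4a (ENSMUSG00000032177) chr9:21165714-21213248 and Pde4b (ENSMUSG00000028525) chr4:102087543-102607259, all on the plus strand.

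Pde4b and Pde3b were the most abundant members and Sik1 the least. Over all 39 libraries the median level was 80.8 CPM for Pde4b and 71.9 CPM for Pde3b, then 50.4 CPM for Pkig, 26.2 CPM for Creb5 and 23.2 CPM for Crem. Pde4d and Pde4a had medians of 18.5 and 15.2 CPM, Pkia and Pkib of 11.5 and 10.4 CPM, and Sik1 of 6.42 CPM. Counts of Sik1 ran from 39 to 202 per library and those of Pde4b from 448 to 2849, so the low members carry more counting error. Pkia varied most, with a highest library 9.93 times the lowest, and Pkib followed at 9.42 times. Pde3b varied least, at 2.12 times. When the 8 group means of each gene were put in order, 70 pairs of neighbours resulted, and only the step to Pkib in combination tumours on day 5 separated groups whose libraries did not overlap. The step exceeded the larger SD of the pair for that one, for Pde4b between vehicle and anti-PD-1 on day 2, and for Pde3b between the combination and EPAT on day 5.

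**Figure D1:**
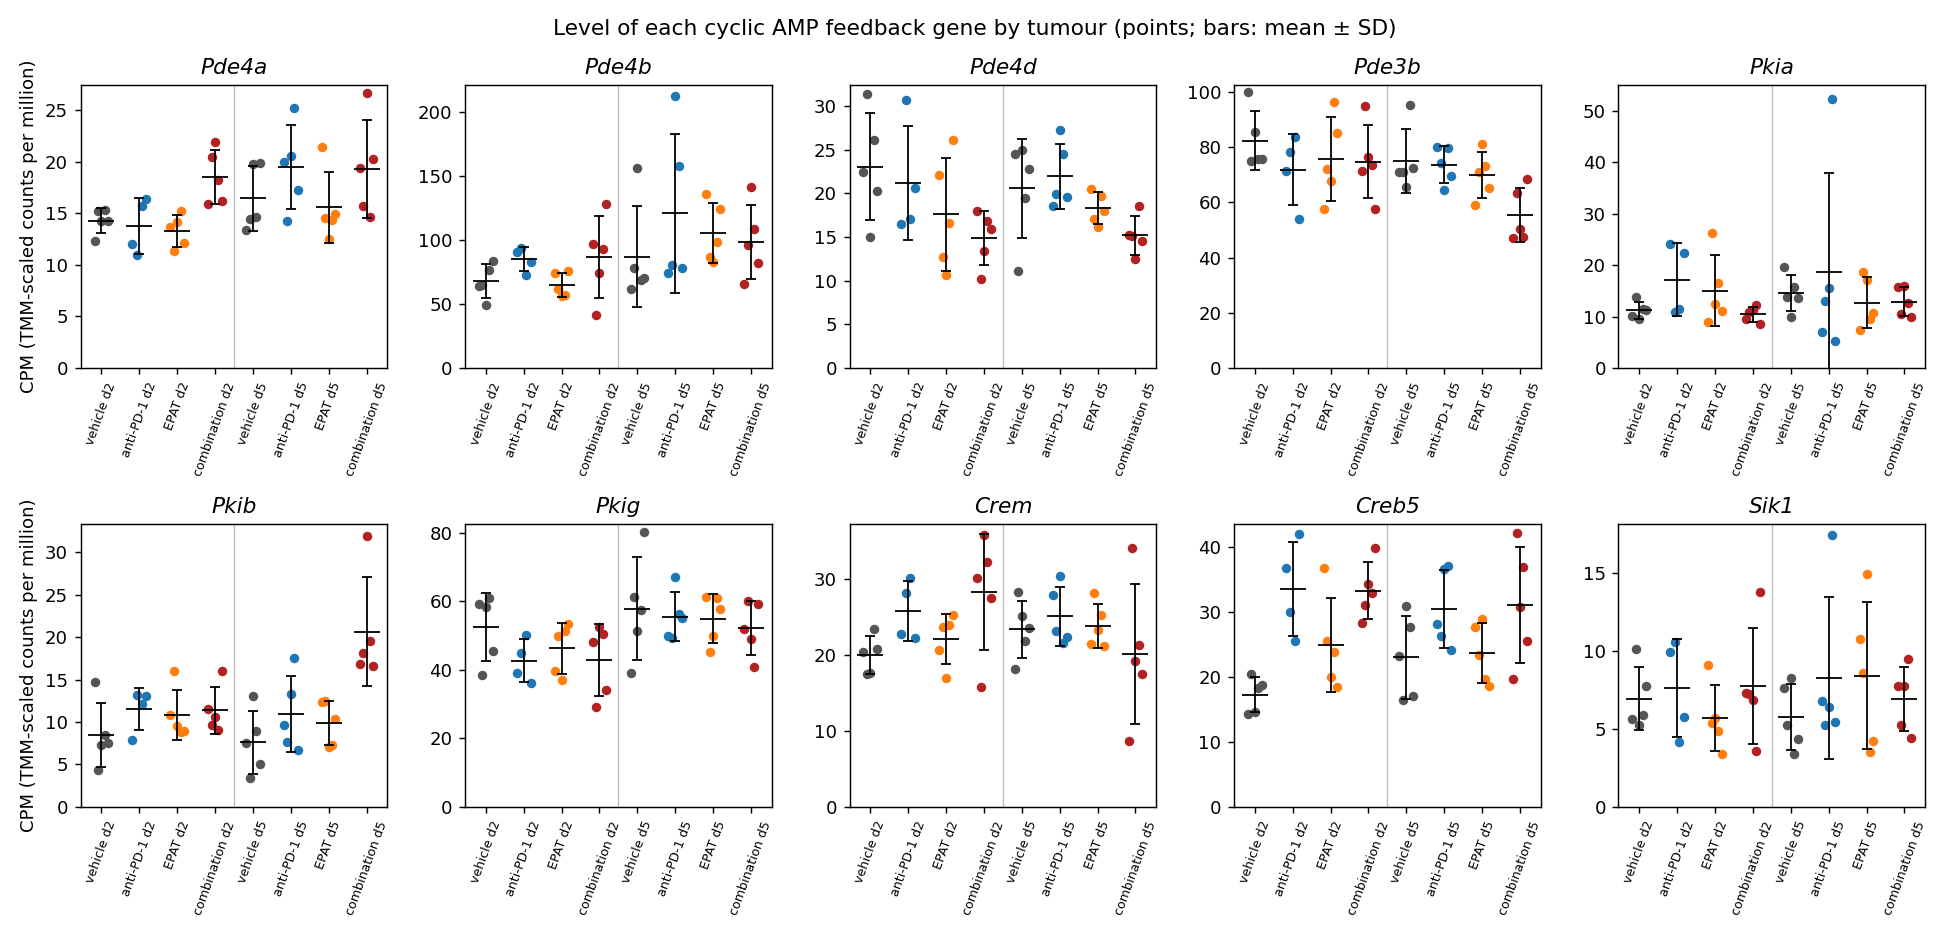
Level of each of the 10 genes in CPM (vertical axis, linear, from 0) in each of the 39 tumours (points) by treatment and day (horizontal axis), with the mean and SD of each group as bars. Creb5 vehicle tumours of day 2 lie between 14.3 and 20.4 CPM, all under the anti-PD-1 and combination tumours of that day, and the 5 Pkib combination tumours of day 5 lie between 16.6 and 31.9 CPM; a lower SD bar is hidden where it would pass under 0.

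Across the treatments, 1 of the 10 members passed a test in 1 of the 16 comparisons: Creb5 rose in tumours given anti-PD-1, alone or with EPAT, over both days. In that comparison edgeR's quasi-likelihood test with Benjamini-Hochberg adjustment called 386 of 15070 genes (289 higher and 97 lower), which is 2.56% of all genes (1.92% higher and 0.644% lower), beside 1 of 10 members, higher. An unadjusted p under 0.05 was reached by 3 members (Creb5, Pkib and Pde4a, all higher) and by 23% of all genes. Since the members were chosen with earlier results of these data known, their share beside that of all genes is not a test of the list. The median log2 fold change of the 10 members was 0.18, with 7 fitted higher and 3 lower, and that of all genes was -0.0037. For EPAT arms against arms without EPAT, no member and no gene of the table passed, while 2 members (Pkib higher, Pde4d lower) and 5.64% of all genes had an unadjusted p under 0.05. DESeq2 called 3 genes in that comparison, none of them a member. The median fold change of the members under EPAT was -0.01, with 4 fitted higher and 6 lower. For day 5 against day 2, no member passed while 2.20% of all genes did (1.63% higher), and 4 members (Pde4a, Pde4b and Pkig higher, Pde3b lower) against 17% of genes had an unadjusted p under 0.05.

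Between single groups, no member passed, and counts at an unadjusted p under 0.05 are given beside those of all genes. Against vehicle, EPAT on day 2 had 1 member (Creb5) and 6.23% of genes, EPAT on day 5 had 0 members and 1.70%, anti-PD-1 on day 5 had 0 members and 7.15%, and the combination on day 5 had 3 members (Pkib and Creb5 higher, Pde3b lower) and 16.5%. The combination against anti-PD-1 had 2 members on day 2 (Pde4a higher, Pde4d lower) and 4.35% of genes. On day 5 it had 3 (Pkib higher, Pde4d and Pde3b lower) and 6.31%, with 0.0199% of genes called, all lower. Against EPAT the combination had 2 on day 2 (Pde4a and Creb5, higher) and 7.36%, and 2 on day 5 (Pkib higher, Pde3b lower) and 12.7%. The interaction of the agents on day 2 had 2 members (Pde4a and Pkia) and 7.28% of genes.

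**Figure D2:**
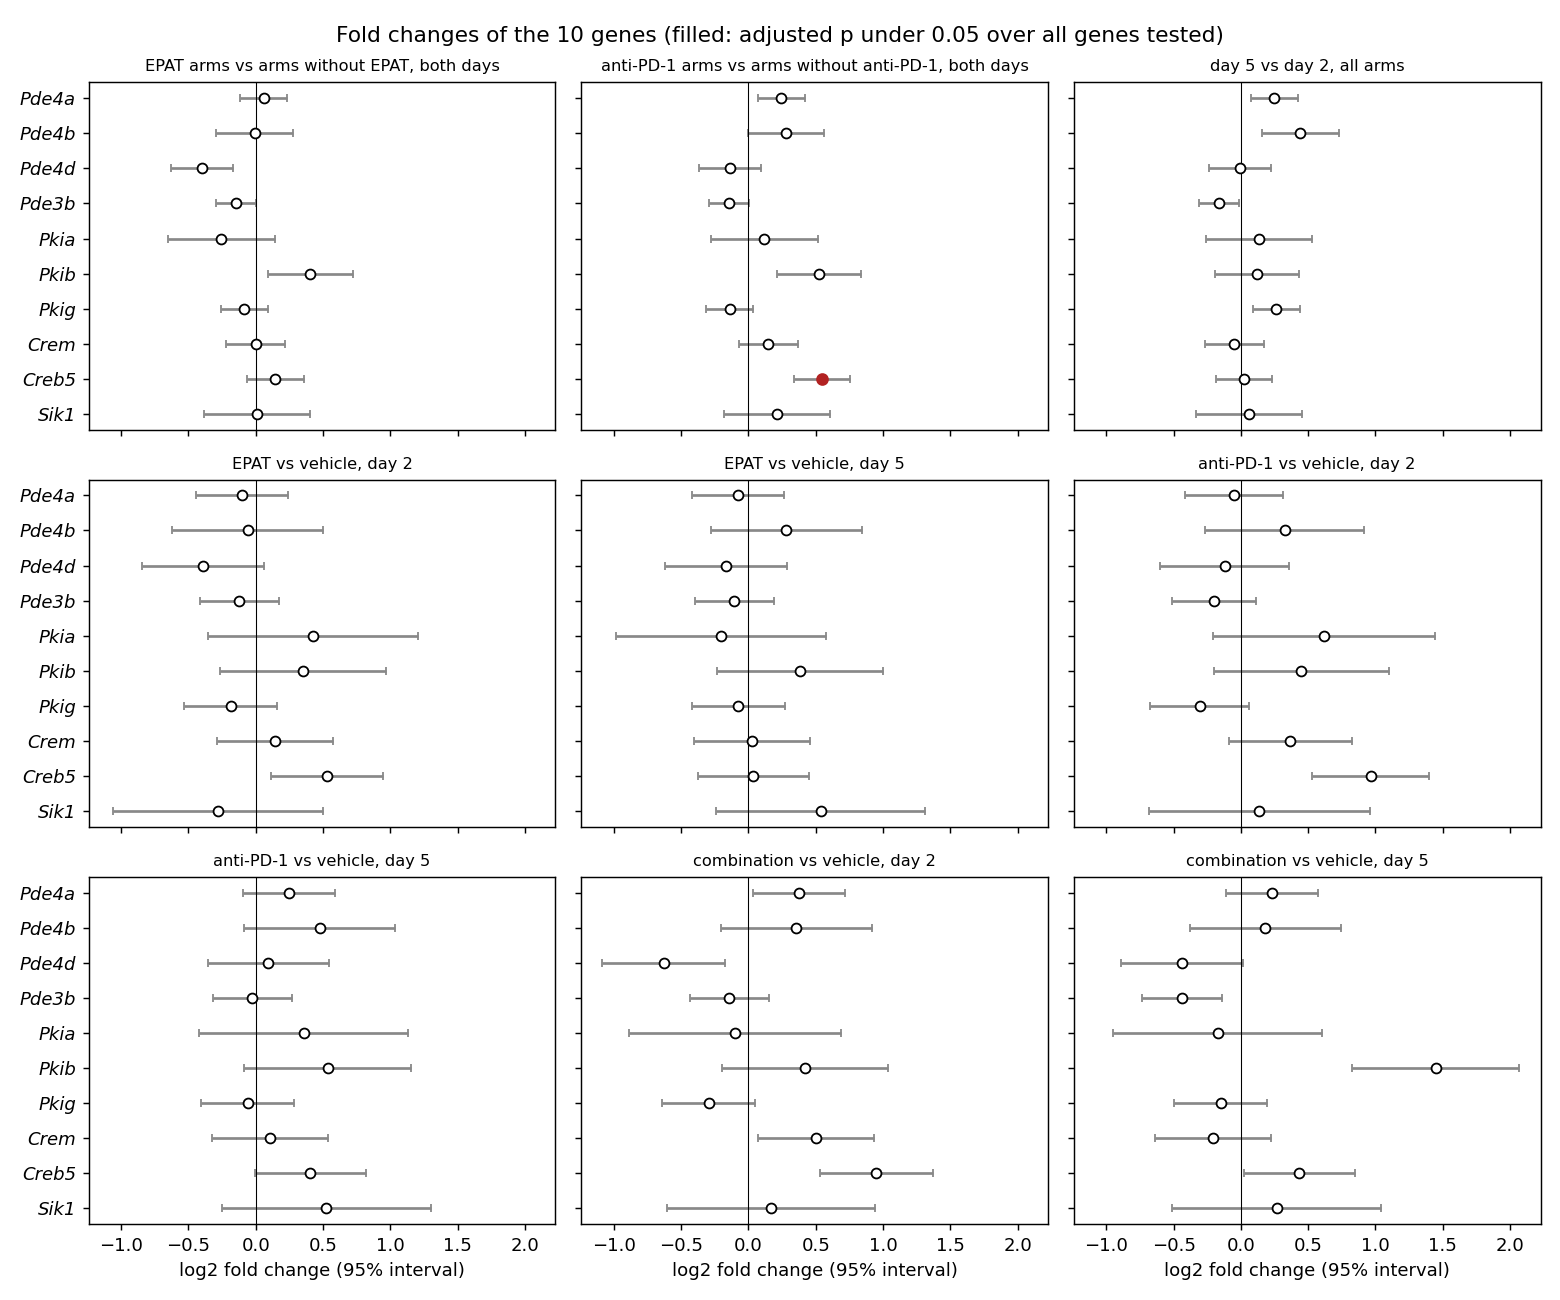
Log2 fold change of each member (points; bars are 95% intervals) in 9 comparisons, with EPAT arms, anti-PD-1 arms and day in the top row and each treatment against vehicle on its day in the others. The filled point, Creb5 in anti-PD-1 arms at 0.55, is the one that passed over all genes tested; Pkib in combination tumours on day 5, at 1.45, is the largest fitted change shown and did not pass.

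The phosphodiesterases did not pass in any comparison. Pde4a encodes a phosphodiesterase specific for cyclic AMP. On day 2 its levels were 12.4, 14.2, 14.3, 15.2 and 15.3 CPM in vehicle tumours, 11.4, 12.1, 13.7, 14.1 and 15.2 CPM in EPAT tumours, and 15.9, 16.2, 18.3, 20.4 and 21.9 CPM in combination tumours. Every combination tumour stood above every vehicle and every EPAT tumour of that day, as was so in 1 direction or the other for 3.88% and 3.27% of all genes. The fold change was 0.38 ± 0.17 (log2 ± SE) against vehicle (edgeR adjusted p = 0.436) and 0.48 ± 0.17 against EPAT alone (adjusted p = 0.529), so neither passed. In anti-PD-1 tumours of day 2 the levels were 11, 12, 15.7 and 16.4 CPM, and they overlapped with the combination. Over both days the difference for anti-PD-1 arms was 0.25 ± 0.09 (edgeR adjusted p = 0.0909), with an interval of 0.07 to 0.42. It was 0.29 (adjusted p = 0.0495) without the 3 libraries whose title number goes against their day, and DESeq2 gave an adjusted p of 0.0494. On day 5 the group means were 16.5 ± 3.16 CPM in vehicle, 19.5 ± 4.10 in anti-PD-1, 15.6 ± 3.41 in EPAT and 19.3 ± 4.75 in combination tumours (SD, n = 5 each), and all 4 groups overlapped.

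Pde4b, which encodes the subtype of phosphodiesterase 4 known for its induction in activated leukocytes, was the most abundant member. Vehicle tumours held 49.4, 63.9, 64.6, 76.6 and 84.0 CPM on day 2 and 61.4, 68.6, 70.6, 78.0 and 157 CPM on day 5. The last of these, replicate 3, stood apart from the other 4 vehicle tumours. In EPAT tumours the levels were 56.6, 56.9, 61.5, 74.2 and 75.9 CPM on day 2, and 82.7, 87.1, 98.6, 124 and 136 CPM on day 5. Anti-PD-1 tumours had 72.3 to 93.4 CPM on day 2. On day 5 they had 74.5, 77.9, 80.8, 158 and 213 CPM, with replicates 4 and 5 far above the others. Combination tumours covered 41.1 to 128 CPM on day 2 and 65.6 to 142 CPM on day 5. Over all arms the difference between day 5 and day 2 was 0.44 ± 0.14, short of the threshold (edgeR adjusted p = 0.0892; 0.0419 with DESeq2). Against vehicle, EPAT differed by -0.06 on day 2 and by 0.28 on day 5, with intervals that included 0.

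Pde4d and Pde3b had their lowest group means in combination tumours, Pde4d on day 2 and Pde3b on day 5. Pde4d encodes another phosphodiesterase 4 subtype, and its levels on day 2 were 15.0, 20.3, 22.5, 26.1 and 31.3 CPM in vehicle tumours against 10.2, 13.4, 15.9, 16.9 and 18 CPM in combination tumours. The 2 groups overlapped, with 1 vehicle tumour under 3 of the combination tumours, and the difference was -0.63 ± 0.22 (edgeR adjusted p = 0.270). Averaged over both days and both backgrounds, EPAT arms differed from arms without EPAT by -0.40 ± 0.11 (unadjusted p = 0.0012, edgeR adjusted p = 0.699), with an interval of -0.63 to -0.17. Pde4d levels spanned 10.2 to 26.1 CPM in the 20 EPAT-treated tumours (median 16.3) and 11.1 to 31.3 CPM in the 19 others (median 20.6). Pde3b encodes a phosphodiesterase that is itself inhibited by cyclic GMP. On day 5 it stood at 47.1, 47.6, 50.5, 63.5 and 68.5 CPM in combination tumours and at 65.7, 70.8, 71.0, 72.5 and 95.5 CPM in vehicle tumours. Only combination replicate 5 reached above the lowest vehicle tumour. The difference was -0.44 ± 0.15 against vehicle (edgeR adjusted p = 0.182), -0.41 ± 0.15 against anti-PD-1 alone (adjusted p = 0.673) and -0.33 ± 0.15 against EPAT alone (adjusted p = 0.353), and none passed. Without vehicle replicate 4, the tumour at 95.5 CPM, the difference from vehicle was -0.34.

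Among the inhibitors of PKA, small proteins that occupy the substrate site of its catalytic subunit, Pkib stood highest in combination tumours of day 5. In those 5 tumours the Pkib level was 16.6, 16.9, 18.2, 19.6 and 31.9 CPM. Vehicle tumours of the same day had 3.39, 5.02, 7.53, 8.96 and 13 CPM, and EPAT tumours 7.0, 7.26, 10.4, 12.3 and 12.4 CPM. No combination tumour overlapped with either group (2.16% of all genes did not overlap with EPAT), while anti-PD-1 tumours, at 6.63, 7.66, 9.67, 13.3 and 17.5 CPM, overlapped through replicate 5. The fold change was 1.45 ± 0.31 against vehicle, 1.06 ± 0.30 against EPAT and 0.91 ± 0.30 against anti-PD-1. None passed, with edgeR adjusted p of 0.110, 0.282 and 0.651, and Pkib ranked 5 by p among all genes in the comparison with vehicle. That comparison called 4 genes, all lower, or 0.0265% of those tested, and 1.57% of all genes had groups that did not overlap, beside 1 of the 10 members. Under DESeq2 the comparison with vehicle had an adjusted p of 0.00314, and under limma-trend 0.0346. Leaving out 1 library at a time put the fold change between 1.23 (without combination day 5 replicate 3) and 1.72 (without vehicle day 5 replicate 3), with edgeR adjusted p from 0.0184 to 0.414, under 0.05 in 2 of the 39 fits. Without vehicle replicates 1 and 2 of day 2, of which the first had the highest B cell and adipocyte scores of the series and the second the highest keratinocyte score (5.76, 6.63 and 4.17), it was 1.46 (adjusted p = 0.0489). That fit kept combination day 5 replicate 3, the tumour at 31.9 CPM, whose keratinocyte score was 3.53 against a median of -0.99 over all libraries. It also kept anti-PD-1 day 2 replicate 4, with an adipocyte score of 5.37.

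Pkib on day 2 showed no such separation. Its levels were 4.37, 7.23, 7.49, 8.41 and 14.7 CPM in vehicle, 7.92, 12.2, 13.1 and 13.1 CPM in anti-PD-1, 8.85, 8.96, 9.52, 10.8 and 16 CPM in EPAT, and 9.10, 9.63, 10.6, 11.6 and 16 CPM in combination tumours. All 4 groups overlapped. Over both days, anti-PD-1 arms differed by 0.53 ± 0.15, with an edgeR adjusted p of 0.0515, just short of the threshold. It was 0.0175 under DESeq2, 0.0477 with DESeq2's scaling inside edgeR, 0.0401 without the 2 vehicle libraries of mixed tissue and 0.0370 without the 3 libraries whose title number goes against their day, and it was under 0.05 in 12 of 39 fits that left out 1 library. The median was 13.1 CPM in the 19 anti-PD-1 tumours and 8.90 CPM in the 20 others. Within libraries with lung transcripts the mean log2 level differed by 0.53, and within those without by 0.61. EPAT arms differed by 0.41 ± 0.15 (edgeR adjusted p = 0.788).

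Pkia and Pkig, the other 2 inhibitor genes, showed no difference that passed. Pkia, the muscle and brain form, stood at 5.28, 7.02, 13, 15.5 and 52.4 CPM in anti-PD-1 tumours of day 5, where replicate 5 was the highest library of the series. In vehicle tumours of that day it was 9.96, 13.6, 13.8, 15.8 and 19.6 CPM, inside the anti-PD-1 range. The fitted interaction of EPAT and anti-PD-1 on day 2 was -1.14 ± 0.56 (edgeR adjusted p = 0.679): means were 11.2 ± 1.64 CPM in vehicle (SD, n = 5), 17.2 ± 7.03 in anti-PD-1 (n = 4), 15.0 ± 6.85 in EPAT and 10.5 ± 1.48 in combination tumours (n = 5 each). Pkig, a broadly expressed form, averaged 46.2 CPM in tumours of day 2 and 55.1 CPM on day 5, a difference of 0.26 ± 0.09 that did not pass (edgeR adjusted p = 0.0997; 0.0486 with DESeq2). The days overlapped, at 29.2 to 61.0 and 38.9 to 80.1 CPM. Under EPAT alone Pkig differed from vehicle by -0.19 on day 2 (interval -0.53 to 0.16) and by -0.07 on day 5 (interval -0.42 to 0.27).

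Creb5, which encodes a leucine zipper protein able to bind the cyclic AMP response element, rose in anti-PD-1 arms by 0.55 ± 0.10 on the log2 scale over both days (edgeR adjusted p = 0.0107, rank 6 of all genes). Its level had a lowest, median and highest value of 19.7, 31 and 42.2 CPM in the 19 tumours given anti-PD-1 and of 14.3, 20.1 and 36.8 CPM in the 20 others. Of the 19, 18 lay above the mean of the others, though the ranges overlapped. On day 2 vehicle tumours had 14.3, 14.5, 18.2, 18.7 and 20.4 CPM. Anti-PD-1 tumours of that day had 25.6, 30.0, 36.7 and 41.9 CPM, and combination tumours 28.3, 31, 32.9, 34.3 and 39.9 CPM. Neither group overlapped with vehicle. EPAT tumours lay between, at 18.4, 19.9, 23.8, 25.4 and 36.8 CPM, and overlapped with all 3 groups.

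Against vehicle on day 2, Creb5 differed by 0.96 ± 0.22 under anti-PD-1 (edgeR adjusted p = 0.524), by 0.95 ± 0.21 under the combination (adjusted p = 0.0711) and by 0.53 ± 0.20 under EPAT (adjusted p = 0.715). None of these passed over all genes. Groups that did not overlap were found for 3.23% of all genes under anti-PD-1, beside 1 of 10 members, and for 3.88% under the combination, beside 2 of 10 (Creb5 and Pde4a). An unadjusted p under 0.05 was reached by 1 member and 7.12% of genes under anti-PD-1 and by 4 members (Creb5, Pde4a and Crem higher, Pde4d lower) and 10.2% of genes under the combination. The combination difference in Creb5 had an adjusted p of 0.00465 under DESeq2 and of 0.0189 in a model of only the libraries compared. With 1 library left out it ranged from 0.0403 to 0.252, under 0.05 in 7 of 39 fits.

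On day 5 Creb5 stood at 16.4, 17, 23.2, 27.7 and 30.8 CPM in vehicle and at 18.6, 19.7, 23.4, 27.7 and 28.9 CPM in EPAT tumours. Anti-PD-1 tumours had 24.1, 26.2, 28.2, 36.6 and 37.1 CPM, and combination tumours 19.7, 25.5, 30.8, 36.9 and 42.2 CPM. All 4 groups overlapped, with the highest 2 levels of both anti-PD-1 groups above every tumour of day 5 without the antibody. The difference from vehicle was 0.40 under anti-PD-1 (interval -0.01 to 0.82), 0.43 ± 0.20 under the combination (edgeR adjusted p = 0.284) and 0.04 under EPAT (interval -0.38 to 0.45). Taken on its own day, the anti-PD-1 difference was 0.69 on day 2 (adjusted p = 0.311) and 0.40 on day 5 (adjusted p = 0.174), so the call rests on both days together; whether the days differ was not tested. In the 39 fits that left out 1 library, the pooled value stayed between 0.51 and 0.60, with an edgeR adjusted p from 0.00297 to 0.0232. It was 0.63 within libraries with lung transcripts (11 against 12 tumours) and 0.42 within those without (8 against 8).

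Monocyte genes were higher in the same tumours. The monocyte score, the mean log2 CPM of Ccr2, Ly6c2, Plac8, Chil3, Ifitm6, Ms4a4c, F10 and Vcan, ranged from 4.70 to 6.37 in the 19 tumours given anti-PD-1 and from 3.76 to 5.75 in the 20 others. All 8 genes passed the filter and none was at 0 in any library. On day 2 the score was 3.76 to 4.87 in vehicle and 4.93 to 6.37 in anti-PD-1 tumours, which did not overlap. In EPAT tumours of that day it was 4.59 to 5.75 and in combination tumours 4.70 to 5.84, and both overlapped with vehicle, while Creb5 in combination tumours did not. Its difference between anti-PD-1 arms and the others was 0.57 log2 units, beside 0.55 for Creb5. Neutrophil, dendritic cell and macrophage scores differed by 0.56, 0.51 and 0.42 in the same direction. The part of these cells in the Creb5 result was not tested.

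Crem and Sik1, the classical early targets of CREB among the members, showed no difference that passed. Crem, whose short forms repress transcription from cyclic AMP response elements, had 17.5, 17.6, 20.4, 20.7 and 23.4 CPM in vehicle and 15.8, 27.5, 30.1, 32.2 and 35.7 CPM in combination tumours of day 2. The fold change was 0.50 ± 0.21 (edgeR adjusted p = 0.387), and 4 of the 5 combination tumours stood above every vehicle tumour while replicate 2 stood under all. That library had a T cell score of -0.11, against 2.05 to 5.39 in the other 38, and also the lowest Pde4b and Pde4d levels of the series. Without it the fold change of Crem was 0.67 (adjusted p = 0.123), that of Pde4d on day 2 was -0.50 (adjusted p = 0.433) and that of Creb5 was 1.00 (adjusted p = 0.0403), all against vehicle. On day 5 the combination held both the lowest and the highest Crem level of the day, 8.60 and 34.1 CPM. The short and long forms share one row of the table, so they were not told apart. Sik1, whose kinase restrains the CREB coactivators, ranged from 3.35 to 17.4 CPM and had no unadjusted p under 0.05 in any of the 16 comparisons. In EPAT tumours of day 5 it was 3.54, 4.21, 8.54, 10.8 and 14.9 CPM, against 3.35, 4.37, 5.23, 7.62 and 8.23 CPM in vehicle, with a fold change of 0.54 and an interval of -0.24 to 1.31.

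Levels of several members followed cell type scores across the 39 libraries. Pearson and Spearman coefficients were computed for 120 pairs of a member and a list, of which 25 had a permutation p adjusted over the 120 under 0.05 for Pearson's r, and the strongest list is given for each member. All libraries entered, so treatment groups contribute to these values, and Pearson coefficients centred on group means are given beside them. Creb5 and the monocyte score had r = 0.71 and rho = 0.68 (permutation p = 1e-05 each, the smallest that 100000 permutations can give; adjusted 0.00015 and 0.00024). Without the 2 libraries farthest from the median score r was 0.69, within libraries with and without lung transcripts it was 0.72 and 0.68, and centred on groups it was 0.51. Pkib and the dendritic cell score had r = 0.72 and rho = 0.77 with the same p-values, r = 0.68 without the 2 farthest libraries, 0.85 and 0.60 with and without lung transcripts, and 0.76 centred. All 7 dendritic cell genes were measured, with Clec9a at 0 in 2 libraries and Cd209a in 1. Pde4b and the neutrophil score had the highest coefficient of the members, r = 0.84 and rho = 0.79 with the same p-values, r = 0.85 without the 2 farthest libraries, 0.86 and 0.84 with and without lung transcripts, and 0.88 centred. The neutrophil list had 7 of its 8 genes above the filter, and Ly6g was at 0 in all 39 libraries. Other lists also had high coefficients: for Pde4b r was 0.72 with the endothelial, 0.70 with the T cell and 0.68 with the fibroblast and macrophage scores. On day 2 and day 5, r for Pde4b was -0.12 and 0.87 with the fibroblast score and 0.34 and 0.80 with the endothelial score. It was 0.33 and 0.79 with the macrophage score and 0.58 and 0.77 with the T cell score. The fibroblast value was 0.53 without the 2 libraries farthest from the median score. For Pkib r was 0.62 with the macrophage, 0.61 with the monocyte and 0.58 with the T cell score. With the adipocyte score r was -0.06 for Pde4b and 0.04 for Pkib. The neutrophil score was 0.53 log2 units higher on day 5 than on day 2, beside 0.44 for Pde4b, and the dendritic cell score 0.51 higher in anti-PD-1 arms, beside 0.53 for Pkib; the part of these cells in either difference was not tested.

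Pde4a went with the macrophage score, at r = 0.66 and rho = 0.55 (permutation p = 1e-05 and 0.0004, adjusted 0.00015 and 0.0032). Without the 2 farthest libraries r was 0.50, it was 0.50 and 0.74 with and without lung transcripts, and centred it was 0.55. By day it was 0.34 on day 2 and 0.78 on day 5. Pde4a also had r of 0.50 with the endothelial and dendritic cell scores, 0.45 with the fibroblast and 0.42 with the melanocyte score. Pde3b ran against the neutrophil score, at r = -0.53 and rho = -0.57 (permutation p = 0.00057 and 0.00032, adjusted 0.00489 and 0.00295), with r = -0.56 without the 2 farthest libraries -0.43 and -0.64 with and without lung transcripts, and -0.45 centred. Pde3b also ran against the monocyte (r = -0.48) and T cell (r = -0.43) scores. Creb5 also went with the dendritic cell (r = 0.48) and macrophage (r = 0.41) scores. For Pde4d, Pkig, Crem and Sik1 no list had an adjusted p under 0.05 for Pearson's r. Their strongest were the neutrophil score for Pde4d (r = 0.33, rho = 0.27, centred r = 0.49, permutation p adjusted to 0.130 and 0.257), the T cell score for Pkig (r = 0.33, rho = 0.15, centred r = 0.35, adjusted to 0.130 and 0.564), the monocyte score for Crem (r = 0.37, rho = 0.34, centred r = 0.44, adjusted to 0.0789 and 0.122) and the muscle score for Sik1 (r = 0.26, rho = 0.20, centred r = 0.36, adjusted to 0.324 and 0.468). The muscle score split the libraries into 7 at or under 0.50 and 32 at 2.64 or more, so Pkia was read within each and no pooled or centred value is given. In the 32, Pkia and the score had r = 0.84 and rho = 0.75 (permutation p = 1e-05 each; values within these clusters are not among the 120), and r was 0.75 without the 2 farthest libraries. In the 7, r was 0.19 (exact permutation p = 0.637) and rho -0.07 (exact permutation p = 0.906), and Pkia stayed between 5.28 and 11.5 CPM.

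**Figure D3:**
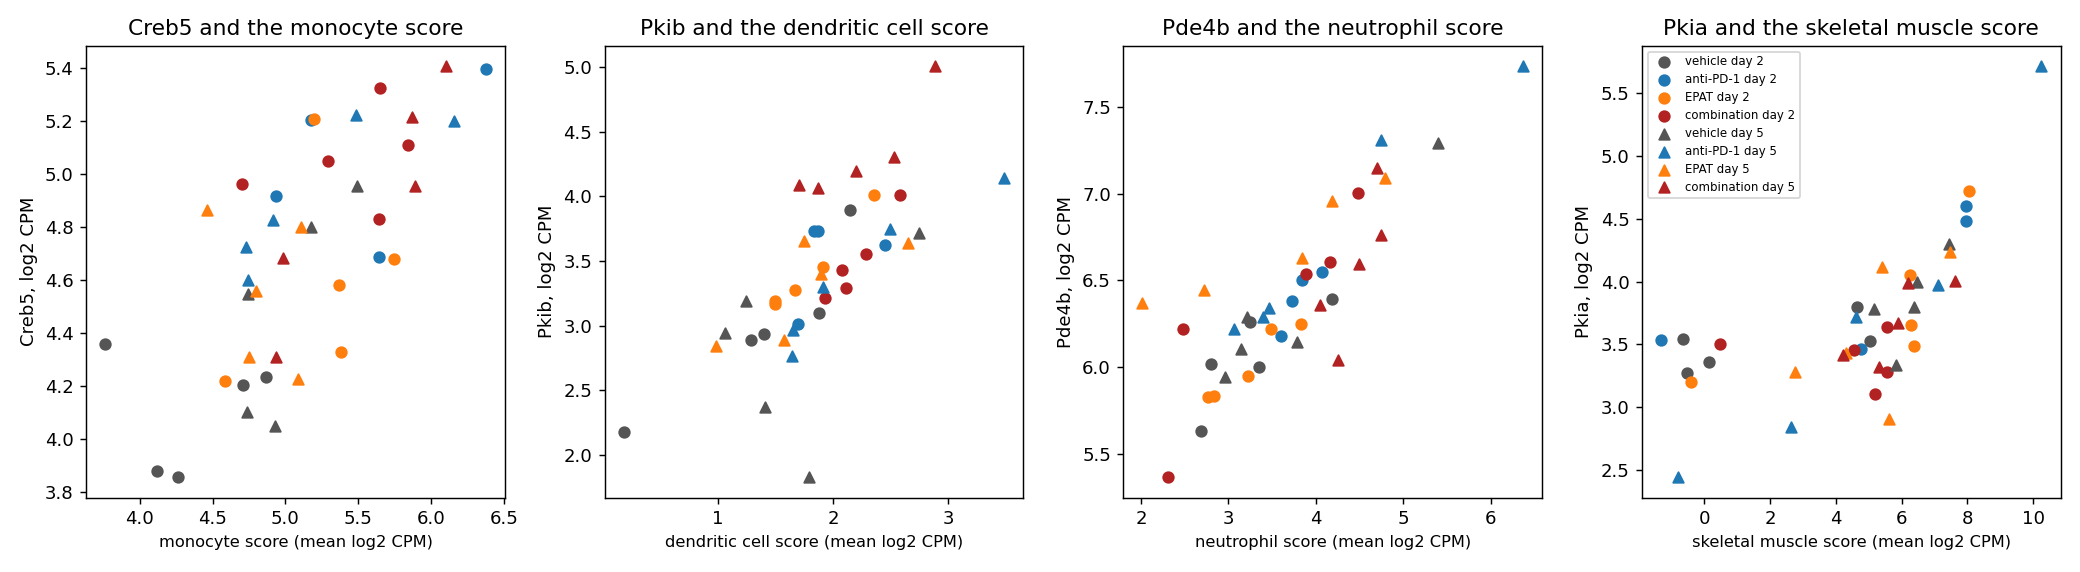
Log2 CPM of 4 members (vertical axes) against the score of a cell type list (horizontal axes, mean log2 CPM of its genes) in 39 tumours, coloured by treatment, with circles for day 2 and triangles for day 5. Creb5, Pkib and Pde4b are higher where the monocyte, dendritic cell and neutrophil scores are higher, with r of 0.71, 0.72 and 0.84, and Pkia is higher with muscle genes among the 32 tumours that hold them.

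The genes most like each member in their pattern were taken as those with the highest Pearson r of log2 CPM over the 39 libraries, among 11621 genes. For Creb5 they were Cd200r4 (r = 0.84), Ifi204 (0.80) and Irf2 (0.79). For Pkib they were Ly9 (r = 0.85), Sp110 (0.84) and Aim2 (0.83), and for Pde4b Prdm1 (r = 0.88), Psen2 (0.87) and Il1b (0.86). Pkia was most like Jph1, Tmem38a and Ank1 (r = 0.83, 0.83 and 0.82), and Pde3b most like Nfib, Ccar1 and Wasl (r = 0.80, 0.74 and 0.73). The nearest genes were Gramd1b for Pde4a (r = 0.75), Sntb2 for Pde4d (0.68), Serpinb6b for Crem (0.82) and Kat6a for Sik1 (0.76). Among the members themselves, Pde4b and Pde3b had the lowest coefficient, r = -0.47.

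Of 53 other genes of the cyclic AMP pathway, 47 passed the filter, and 2 of them passed a test, both receptors for prostaglandin E2. Ptger2, which encodes EP2, rose in anti-PD-1 arms by 0.87 ± 0.24 (edgeR adjusted p = 0.0419), and Ptger4, which encodes EP4, rose between day 2 and day 5 by 0.68 ± 0.16 (edgeR adjusted p = 0.0202). These are 1 of 47 genes beside 2.56% of all genes, and 1 of 47 beside 2.20%. The median log2 fold change of the 47 was 0.07 in anti-PD-1 arms, with 28 fitted higher and 19 lower, 0.07 between days, with 30 higher and 17 lower, and -0.03 in EPAT arms, with 21 higher and 26 lower and none passing. Ptger2 was scarce, at 2 to 55 counts per library. On day 2 its mean was 0.91 ± 0.52 CPM in vehicle, 1.98 ± 0.24 in anti-PD-1 (n = 4), 1.56 ± 0.83 in EPAT and 2.59 ± 0.69 in combination tumours (SD, n = 5). On day 5 the means were 1.25 ± 0.72, 2.75 ± 1.59, 1.04 ± 0.56 and 1.52 ± 0.81 CPM in the same order (n = 5 each). The call on Ptger2 held in 18 of 39 fits that left out 1 library, with an adjusted p up to 0.0753 without anti-PD-1 day 5 replicate 4, and was lost without a filter (0.0642), with the replicate number as a block (0.0548), without the 2 vehicle libraries of mixed tissue (0.0565) and on either day alone (0.597 and 0.193).

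Ptger4 was the more abundant receptor. Its mean was 13.6 ± 2.86, 14.5 ± 4.91, 14.8 ± 1.67 and 18 ± 4.27 CPM on day 2 and 19.1 ± 7.58, 25.2 ± 16.4, 22.1 ± 7.55 and 33.1 ± 10.4 CPM on day 5, in the order vehicle, anti-PD-1, EPAT and combination. The call between days held in all 39 fits that left out 1 library, with an adjusted p up to 0.0475. It was lost with the presence of lung transcripts as a term (0.61, adjusted p = 0.0765) and under limma-trend (0.59, adjusted p = 0.0511). Skeletal muscle and fibroblast scores were also higher on day 5, by 1.45 and 0.63 log2 units, and their part in the result was not tested. The lung score was lower on day 5 by 1.79, and the fit with the presence of lung transcripts as a term is the one given above.

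By role, none of the 8 measured genes of cyclic AMP synthesis, 9 other phosphodiesterases, 6 PKA subunits, 2 Epac exchange factors, 6 CREB factors and coactivators, 2 other salt-inducible kinases and 12 CREB targets passed in any comparison. In anti-PD-1 arms 7 of the 8 genes of synthesis were fitted higher (median 0.29), with the adenylyl cyclase gene Adcy9 at 0.43 ± 0.13 (edgeR adjusted p = 0.0627), and so were 7 of the 9 other phosphodiesterases (median 0.28). Of the 12 CREB targets, 4 were fitted higher and 8 lower (median -0.08). Between single groups on day 5, in the combination against EPAT 3 were fitted higher and 9 lower (median -0.56), with an unadjusted p under 0.05 for 1 higher and 8 lower, beside 12.7% of all genes. In the interaction of the agents on day 5, 2 were fitted higher and 10 lower (median -0.67), with 6 lower at an unadjusted p under 0.05, beside 3.10% of all genes. In EPAT alone against vehicle on day 5, 10 were fitted higher and 2 lower (median 0.38), with 2 higher at an unadjusted p under 0.05, beside 1.70% of all genes. On day 2 the direction was the other one. In the combination against EPAT of that day, 7 were fitted higher and 5 lower (median 0.23). An unadjusted p under 0.05 was reached by 4 higher and 0 lower, beside 7.36% of all genes. In the interaction on day 2, 8 were fitted higher and 4 lower (median 0.30), with 3 higher and 0 lower at that p, beside 7.28% of all genes. Comparisons of the same day share tumours. Under EPAT alone on day 5 the immediate early gene Egr1 stood at 1.31 ± 0.25 against vehicle (edgeR adjusted p = 0.118), and over all EPAT arms at 0.42 ± 0.13 (adjusted p = 0.699). The clock gene Per1 in combination tumours of day 5 was at -1.04 ± 0.22 against anti-PD-1 (edgeR adjusted p = 0.119) and -0.95 ± 0.22 against EPAT (adjusted p = 0.218), and the nuclear receptor gene Nr4a1 at -2.42 ± 0.56 against EPAT (adjusted p = 0.218). The immediate early gene Fos lay on the other side of 0 in the same tumours, at 0.99 ± 0.33 against anti-PD-1 (edgeR adjusted p = 0.669), 0.92 ± 0.33 against EPAT (adjusted p = 0.300) and 1.17 ± 0.33 against vehicle (adjusted p = 0.171). Prkar1b, a regulatory subunit of PKA, was at 1.70 ± 0.46 in the combination against vehicle on day 5 (edgeR adjusted p = 0.171), and Pde11a, a phosphodiesterase of both cyclic nucleotides, at 1.21 ± 0.36 between days (adjusted p = 0.0696).

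**Figure D4:**
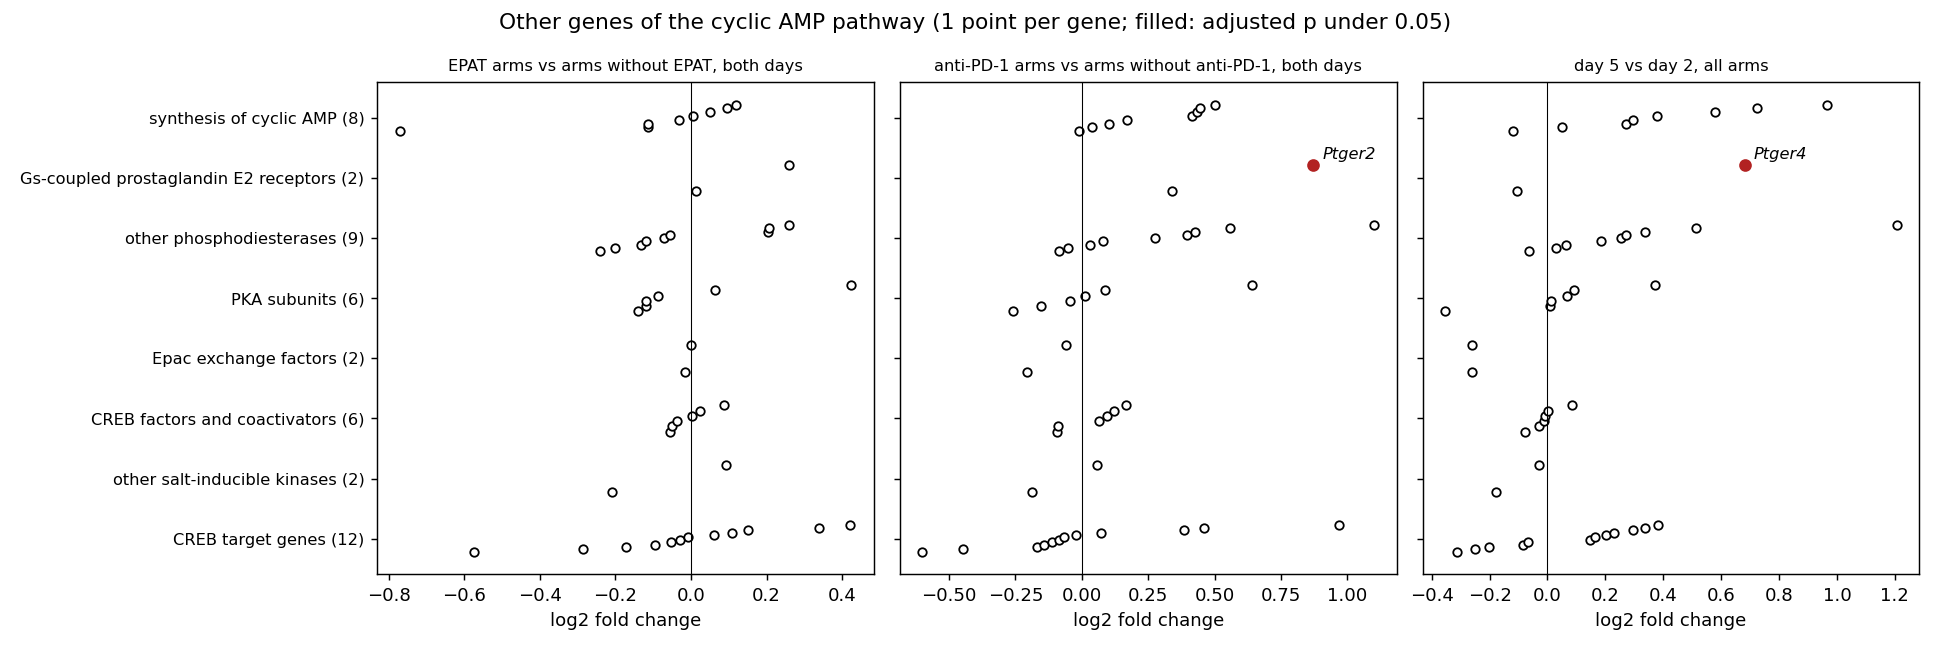
Log2 fold change (horizontal axes) of 47 other cyclic AMP pathway genes, 1 point each, by role (vertical axis, with the number measured) in EPAT arms, anti-PD-1 arms and between days. The filled points are Ptger2 in anti-PD-1 arms at 0.87 and Ptger4 between days at 0.68; the CREB targets lie on both sides of 0 in all 3 panels.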

How the data were processed

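For 39 QuantSeq 3′ libraries the authors deposited raw counts by Ensembl identifier and, separately, log2 CPM values of 16095 genes, made from 500 ng of total RNA per the labels' protocols. Per the submitters' processing notes bcl2fastq, STAR and featureCounts were used, then limma; the builds named are mm10 and GRCm38. Versions, annotation release and counting strand were not found there. Pkia, Pkig and Crem each overlap 1 gene on the opposite strand and Pde4d overlaps 2, none near the 3′ end, and such reads could not be told apart without the strand. Symbols came from the GENCODE M21 names and matched 37607 identifiers. Totals ranged from 8385741 to 15558113 (median 12193825), and libraries within each group differed by more than sampling noise.

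The counts were tested with edgeR 4.0.16 in R 4.3.3: filterByExpr (minimum count 10, total 15) left 15070 genes, followed by TMM scaling, 1 mean per group over 39 libraries (31 residual degrees of freedom), the robust quasi-likelihood F test, 2-sided, and Benjamini-Hochberg adjustment over all genes tested, with a threshold of 0.05. There were 16 comparisons. Standard errors are fold changes on the log2 scale over the root of F. Log2 CPM for scores, correlations and figures used a prior count of 2. Correlations were tested with 100000 permutations, or exactly under 10 libraries. The deposited log2 CPM entered 1 alternative (limma-trend, limma 3.58.1). Other alternatives were DESeq2 1.42.0, its scaling, no filter, a replicate block, only the libraries compared, leaving out vehicle replicates 1 and 2 of day 2, and leaving out each library; a lung term, each day alone and leaving out the 3 libraries whose title number goes against their day were added after seeing the data. The pipeline was tested on simulated data.

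Named were the 10 members, the 3 genes with the highest r to each (mean log2 CPM of at least 1), pathway genes that passed, and otherwise up to 2 per comparison by p. Of the latter, those from the treatment and day comparisons a result turns on are printed. The genes most like Pkig are not reported here. The members and lists were chosen with earlier results of these data known.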

Additional observations from a re-analysis of the deposited data

Results flagged for a closer look

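Of 80 groups tested (10 members in 8 groups), 5 held 1 tumour apart from the others of its group by Dixon's criterion, where chance marks about 1 in 20 groups. Pde4b was 157 CPM in vehicle day 5 replicate 3, against 61.4 to 78.0 CPM in the other 4; without that tumour the difference of Pde4b between days was 0.36 (edgeR adjusted p = 0.176). Pde3b was 95.5 CPM in vehicle day 5 replicate 4, against 65.7 to 72.5 CPM. Pkib was 7.92 CPM in anti-PD-1 day 2 replicate 1, against 12.2 to 13.1 CPM, and 31.9 CPM in combination day 5 replicate 3, against 16.6 to 19.6 CPM. Sik1 was 17.4 CPM in anti-PD-1 day 5 replicate 5, against 5.25 to 6.76 CPM.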

How the results depend on the processing

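Signs were followed for members with an unadjusted edgeR p under 0.05 in a comparison and for pathway genes that passed. None of these changed sign under any alternative, and the other fold changes printed here were not followed. Creb5 in anti-PD-1 arms passed under every alternative except each day alone, where no gene of the table passed. For anti-PD-1 arms, the count of genes (386) was 1075 with DESeq2, 162 without a filter, 209 with limma-trend, 232 without the mixed tissue libraries and 0 on day 2 or day 5 alone; the count of members (1) was 3 with DESeq2 (Creb5, Pde4a, Pkib), 2 with DESeq2's scaling, 2 without the mixed tissue libraries (Creb5, Pkib) and 0 on either day alone. Between days, the genes (332) were 669 with DESeq2, 209 without a filter, 137 with limma-trend and 95 with the lung term, and DESeq2 called 2 members (Pde4b, Pkig). The combination against vehicle on day 2 had 84 genes with DESeq2, 1 with limma-trend and 99 with only the libraries compared, and 1 member (Creb5) with DESeq2 and with only the libraries compared. On day 5 it had 83 with DESeq2, 2 without a filter and 0 with only the libraries compared, and 1 member (Pkib) with DESeq2, limma-trend or without the mixed tissue libraries. The combination against anti-PD-1 on day 5 (3 genes) had 18 with DESeq2 and 0 without a filter, with the block or with only the libraries compared. The combination against EPAT had 27 with DESeq2 and 1 with only the libraries compared on day 2, and 24 with DESeq2 and 2 with its scaling on day 5. Against vehicle, DESeq2 gave 2 genes for the antibody on day 2, 1 on day 5, 1 for EPAT on day 2, 3 for EPAT on day 5 (1 with only the libraries compared), 3 for EPAT arms (2 on day 5 alone), 4 for the interaction on day 2 and 3 for the EPAT effect between days, all without a member. Without the 3 libraries whose title number goes against their day, 718 genes and 3 members (Creb5, Pde4a, Pkib) passed in anti-PD-1 arms, 2 genes in the combination against vehicle and 0 against anti-PD-1 on day 5; Creb5, Ptger2 and Ptger4 kept their calls.

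Replicate numbers are shared between groups. Deviations from group means had a median r of 0.01 for 133 pairs of libraries with the same number (44 over 0.1). For 532 pairs with other numbers the median was -0.01 (149 over 0.1). Single pairs ranged from -0.56 to 0.57 and from -0.52 to 0.64, so these medians show no clear pairing but cannot exclude a weak one. With the replicate block, 149 genes passed between days and 0 for the combination against anti-PD-1 on day 5; it ended the call on Ptger2 and no other call named here.

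With 1 library left out at a time, the genes called ranged from 147 (without anti-PD-1 day 5 replicate 4) to 1300 (without vehicle day 5 replicate 3) for anti-PD-1 arms, with 1 to 3 members, and from 137 to 574 between days, with 0 to 1 members. For the combination they ranged from 0 to 20 against vehicle on day 2 (0 to 1 members) and from 0 to 205 on day 5 (0 to 1 members), from 0 to 1 and 0 to 6 against anti-PD-1 on days 2 and 5, and from 0 to 1 and 0 to 4 against EPAT. They ranged from 0 to 1 for EPAT on day 5 and for both interactions. Ptger2 rests on 2 to 55 counts per library and Sik1 on 39 to 202.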
